A study of Arabidopsis thaliana with 4 samples.

Results

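The core histone genes of Arabidopsis thaliana, which encode the proteins H2A, H2B, H3 and H4 of the nucleosome, were followed through a short heat treatment in wild type and in a larp1 mutant. Genes were taken by their deposited description (a member of the histone superfamily, or histone H2A, H2B, H3 or H4, leaving out enzymes that acetylate or methylate histones), which gave 45 of the 25819 genes measured. Of these, 41 are core histones: 12 of H2A, 9 of H2B, 12 of H3 and 8 of H4. The other 4 are AT5G50930, a histone-fold gene, and AT1G52750, AT3G20680 and AT3G27380 (SDH2-1), in which at least 1 exon entry carries the name of an overlapping histone gene; they are described apart. A further 4 core histones, HTA3, HTB2, HTB9 and HTR11, have another description and lie outside the selection.

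RNA came from whole plantlets of the Columbia-0 accession, 21 days old, grown under continuous light on agar medium with sucrose. Pools of 6 to 8 plantlets, wild type (WT) or labelled as larp1 mutant with no allele named, were moved for 15 min into liquid medium at 20 °C or at 38 °C, and each of the 4 combinations is 1 library. LARP1 belongs to the La-related proteins, which bind RNA. With 1 library per group no difference has a replicate check and no p-value is given: every comparison below is between libraries.

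Levels are the deposited RPM, each gene's distinct exon entries added up. They rest on 46066000 reads in the WT control library, 42609400 in the heated WT library, 74421400 in the larp1 control library and 44931700 in the heated larp1 library. Genes with 50 reads or more in either library were compared. A gene was called lower or higher if the libraries differed by 2-fold or more and the 95% interval of the ratio left out no change; intervals stand in square brackets and cover counting error only. In whole plantlets, fewer cells of a type and less RNA per cell cannot be told apart. LARP1A, taken here as the gene meant by the label larp1, was at 37.1 RPM in the WT control, 33.1 RPM in heated WT, 9.21 RPM in the larp1 control and 9.29 RPM in heated larp1. The 4 leaf markers summed to between 20580 and 40440 RPM and the 6 root markers to between 14.1 and 46.0 RPM in the 4 libraries, so markers of both organs were detected.

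Core histones wrap DNA into nucleosomes as octamers of H2A, H2B, H3 and H4. Canonical forms, such as H3.1, are made mainly while DNA is replicated, and in plants their mRNAs carry a poly(A) tail. Replacement variants are made and deposited also outside replication: H3.3 over transcribed genes, H2A.Z around the starts of genes, H2A.W in heterochromatin, H2A.X for the marking of DNA breaks, and CENH3 at centromeres.

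The 5 H3.1 genes and the 3 H3.3 genes encode nearly the same protein, so a stretch of coding sequence that tells them apart is shown first. Over 411 coding bases, 15 positions hold a base common to HTR4, HTR5 and HTR8 that no H3.1 gene has, and capitals mark such positions in codons 84 to 93, counted without the start codon. All sequences are from the RefSeq genome TAIR10.1, whereas the submitters' processing notes name TAIR10; the deposited tables give no coordinates.
HTR1 (H3.1), chr5:26120228-26120257, minus strand: ttccagagcAGcgccgtcgCagcacttcag
HTR2 (H3.1), chr1:2971851-2971880, minus strand: ttccagagcAGtgccgtcgCcgctcttcag
HTR3 (H3.1), chr3:10129588-10129617, minus strand: tttcagagtAGtgcagtcgCagctcttcaa
HTR9 (H3.1), chr5:3270607-3270636, minus strand: ttccagagcAGtgccgtcgCagctcttcag
HTR13 (H3.1), chr5:3269194-3269223, minus strand: tttcagagcAGtgctgttgCtgctttacaa
HTR4 (H3.3), chr4:18555969-18555998, minus strand: ttccagagcCAtgctgtctTagctctccag
HTR5 (H3.3), chr4:18557668-18557697, minus strand: ttccagagcCAtgctgtgcTtgcactccag
HTR8 (H3.3), chr5:3472720-3472749, minus strand: tttcagagtCAcgcggtgtTagctcttcaa
Outside these positions the genes also differ from each other at silent bases. Coding identity ran from 80.3% to 89.5% among the H3.1 genes, from 78.6% to 88.8% among the H3.3 genes and from 78.8% to 98.1% among the 8 H4 genes. Reads were 100 bp long, and a run of 100 exon bases that also occurs elsewhere in the genome was found in 4 core histone genes, all of H4. These are AT3G46320 (12.1% of its 100-base words), AT3G45930 (11.1%), AT1G07660 (7.25%) and AT1G07820 (4.32%), whose levels are less certain because the handling of reads with several matches is not given in the sources used here.

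Plant histone promoters are known for a short octamer motif. The letters CGCGGATC, or GATCCGCG on the other strand, lay within the 250 bases before the annotated start of 9 of 41 core histone genes (22%) and of 37 of 27443 genes in the genome (0.135%). Among the 37, 1 other promoter belongs to a linker histone. Within the 500 bases before the start codon the counts were 9 of 41 and 52 of 27443 (0.189%); HTA1 and HTB4 then come in, and AT1G07660 and HTR5 drop out. The 11 matches before the start of transcription are shown as 30-base windows, read in the direction of CGCGGATC, with the octamer in capitals.
HTA10 (H2A), chr1:18926726-18926755, plus strand: attcactctgaCGCGGATCctgaatctcga
HTA10 (H2A), chr1:18926790-18926819, minus strand: agaagaaactaCGCGGATCgctgtttatca
HTA13 (H2A), chr3:7229311-7229340, minus strand: ataaacaatcaCGCGGATCgatgttactgc
HTA6 (H2A.W), chr5:24116318-24116347, minus strand: atacatagtcaCGCGGATCgtgctttattt
HTR1 (H3.1), chr5:26120689-26120718, minus strand: tttagacgtgaCGCGGATCactaaaattaa
HTR2 (H3.1), chr1:2972406-2972435, minus strand: tcgtaccttcaCGCGGATCagtgttagaaa
HTR2 (H3.1), chr1:2972335-2972364, minus strand: ctgtgatttcaCGCGGATCgtgatagaaac
HTR9 (H3.1), chr5:3271059-3271088, minus strand: ttaacacaggaCGCGGATCgtaaagataca
HTR5 (H3.3), chr4:18558944-18558973, plus strand: atacaaaccgtCGCGGATCgctgaaataaa
AT1G07660 (H4), chr1:2368696-2368725, plus strand: tacagatttcaCGCGGATCgcaatcttgga
AT5G59690 (H4), chr5:24051392-24051421, plus strand: cactgccatcaCGCGGATCactaatatgaa
The match is in the direction of the gene in 8 windows and against it in the second HTA10 window, in HTA13 and in HTR5. Measured to the start of transcription, the octamer lay nearest at -10 and farthest at -126, at -126 in HTR1 and AT1G07660 and at -10 in HTA10. HTR2 carries a pair of octamers, at -90 and -19, and its promoter is shown whole as the H3.1 promoter with the most matches, beside that of HTR5, the most abundant core histone gene.
HTR2 promoter, chr1:2972335-2972584, minus strand: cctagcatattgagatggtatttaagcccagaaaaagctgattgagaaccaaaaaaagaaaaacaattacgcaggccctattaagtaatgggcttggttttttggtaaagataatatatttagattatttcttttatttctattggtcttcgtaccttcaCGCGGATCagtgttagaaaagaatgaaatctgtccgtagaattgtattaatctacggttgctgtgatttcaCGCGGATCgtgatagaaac
HTR5 promoter, chr4:18558946-18559195, minus strand: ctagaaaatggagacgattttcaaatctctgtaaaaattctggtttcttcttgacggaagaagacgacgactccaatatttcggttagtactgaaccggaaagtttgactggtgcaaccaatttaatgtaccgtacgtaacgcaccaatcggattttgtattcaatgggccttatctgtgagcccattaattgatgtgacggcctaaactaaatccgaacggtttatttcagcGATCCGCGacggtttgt
Capitals again mark the octamer, in HTR5 as its reverse complement GATCCGCG where it reads against the gene.
Another letter string known from histone promoters, CCACGTCA or TGACGTGG, was in 5 of 41 core histone promoters (12.2%) and in 1.25% of all promoters. The E2F string TTTCCCGC or GCGGGAAA was in 0 of 41 and in 0.619% of all, TATAAA on either strand in 51.2% and 47.3%, and the heat shock element string GAANNTTC in 7.32% and 9.55%. A match or its absence describes these letters in this window only.

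At 20 °C the most abundant core histone transcripts per length of exon were those of the H3.3 genes HTR5 and HTR4 in both genotypes, followed by the H2B gene HTB4 and the H3.3 gene HTR8. In WT at 20 °C the level per kb was 160 RPM for HTR5, 124 for HTR4, 117 for the H2B gene HTB4, 109 for HTR8, 96.1 and 94.7 for the H4 genes AT1G07820 and AT5G59690, 87.7 for the H3.1 gene HTR1 and 85.4 for the H2A.Z gene HTA9. AT1G07820 adds entries that may overlap, so its place above AT5G59690 is not certain. The lowest members lay far below. HTR6, HTR14, HTR15, HTB8 and HTB10 did not reach 50 reads in any library and are named only. HTR12, which encodes CENH3, was at 0.78 RPM in the WT control, 0.63 RPM in heated WT, 0.92 RPM in the larp1 control and 1.07 RPM in heated larp1. It could be compared between genotypes at 20 °C and for heat in larp1.

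**Figure D1:**
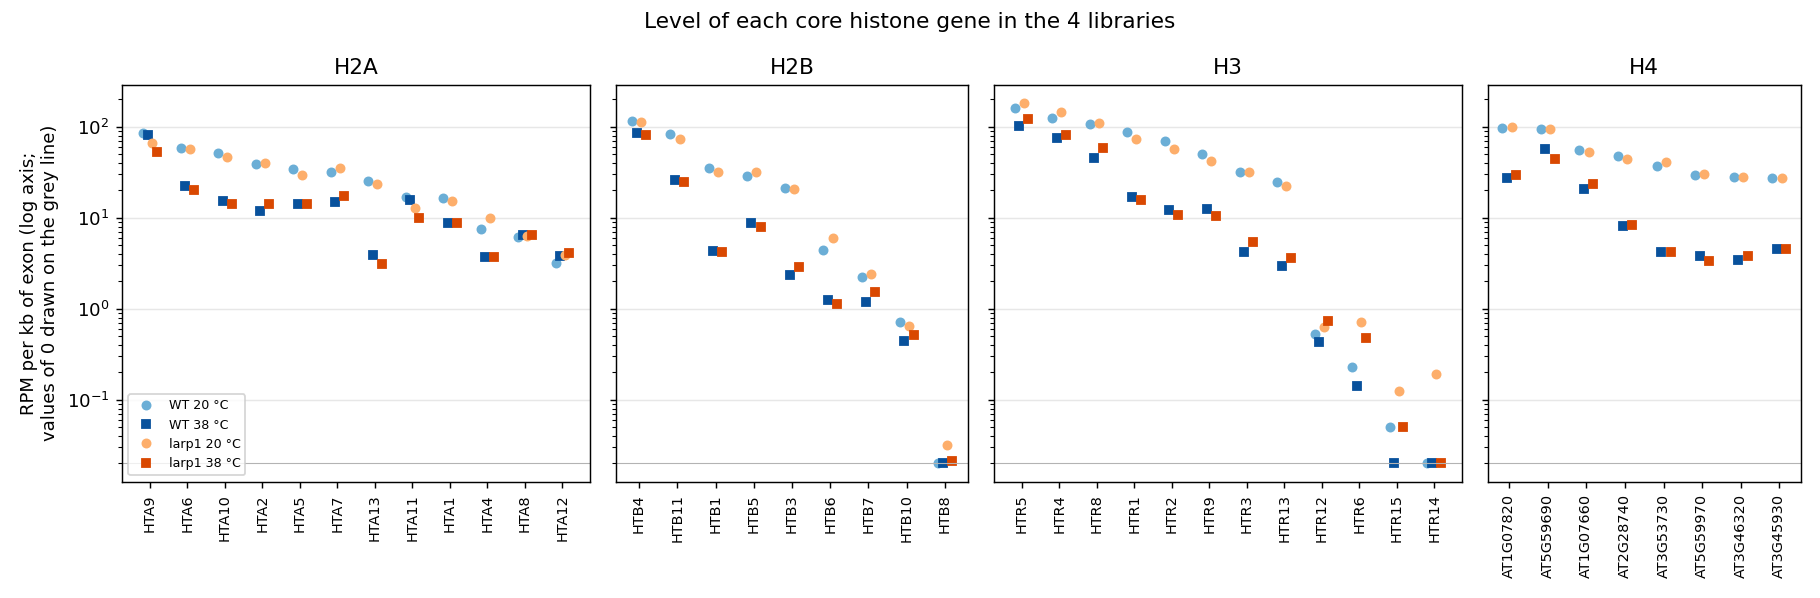
Level of each of the 41 core histone genes in RPM per kb of exon on a log axis, 1 point per library, WT in blue and larp1 in orange, light circles at 20 °C and dark squares at 38 °C; values of 0 lie on the grey line. In most H3.1, H4 and H2B genes the squares lie below the circles in both genotypes; in HTA9, HTA8, HTA12 and HTB4 they lie close together.

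The comparison of 38 with 20 °C asks which histone transcripts changed within 15 min of heat. Summed over the 41 genes, core histones took 0.159% of WT reads at 20 °C and 0.0710% at 38 °C, and 0.158% and 0.0713% in larp1. The ratio of the sums was 0.446 [0.440, 0.452] in WT and 0.451 [0.446, 0.457] in larp1. In WT 25 of the 35 members compared were called lower and 0 higher, where 25% of all 19387 genes compared were lower and 4.26% higher. In larp1 25 of 36 were lower and 0 higher, against 19.8% and 4.19% of 20477 genes. The median log2 ratio of the members was -1.68 in WT and -1.53 in larp1, and that of all genes -0.51 and -0.43, so the histone median lay 1.17 and 1.09 below that of all genes on the log2 scale. Scaling by TMM or by median of ratios shifts the median of all genes up by 0.499 or 0.529 in WT and by 0.414 or 0.434 in larp1. Each scaling multiplies a whole library by a single factor. The distance of the histone median from that of all genes therefore cannot change, and its constancy is no check.

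The classes differed in how much of their summed level was left at 38 °C. For H4 the ratio of the sums was 0.301 [0.291, 0.311] in WT and 0.281 [0.272, 0.290] in larp1. For H3 it was 0.455 [0.445, 0.465] and 0.502 [0.493, 0.512], for H2B 0.490 [0.475, 0.505] and 0.492 [0.478, 0.506], and for H2A 0.545 [0.530, 0.560] and 0.502 [0.489, 0.516]. The H2B sum leaves out 2 genes outside the selection. In WT, HTB9 went from 80.45 to 32.06 RPM and HTB2 from 63.02 to 11.55 RPM. The order of H2B and H3 thus holds for the selected genes only. The members called lower in WT were 7 of 8 H4 genes, 6 of 8 H3 genes compared, 5 of 7 H2B genes compared and 7 of 12 H2A genes.

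**Figure D2:**
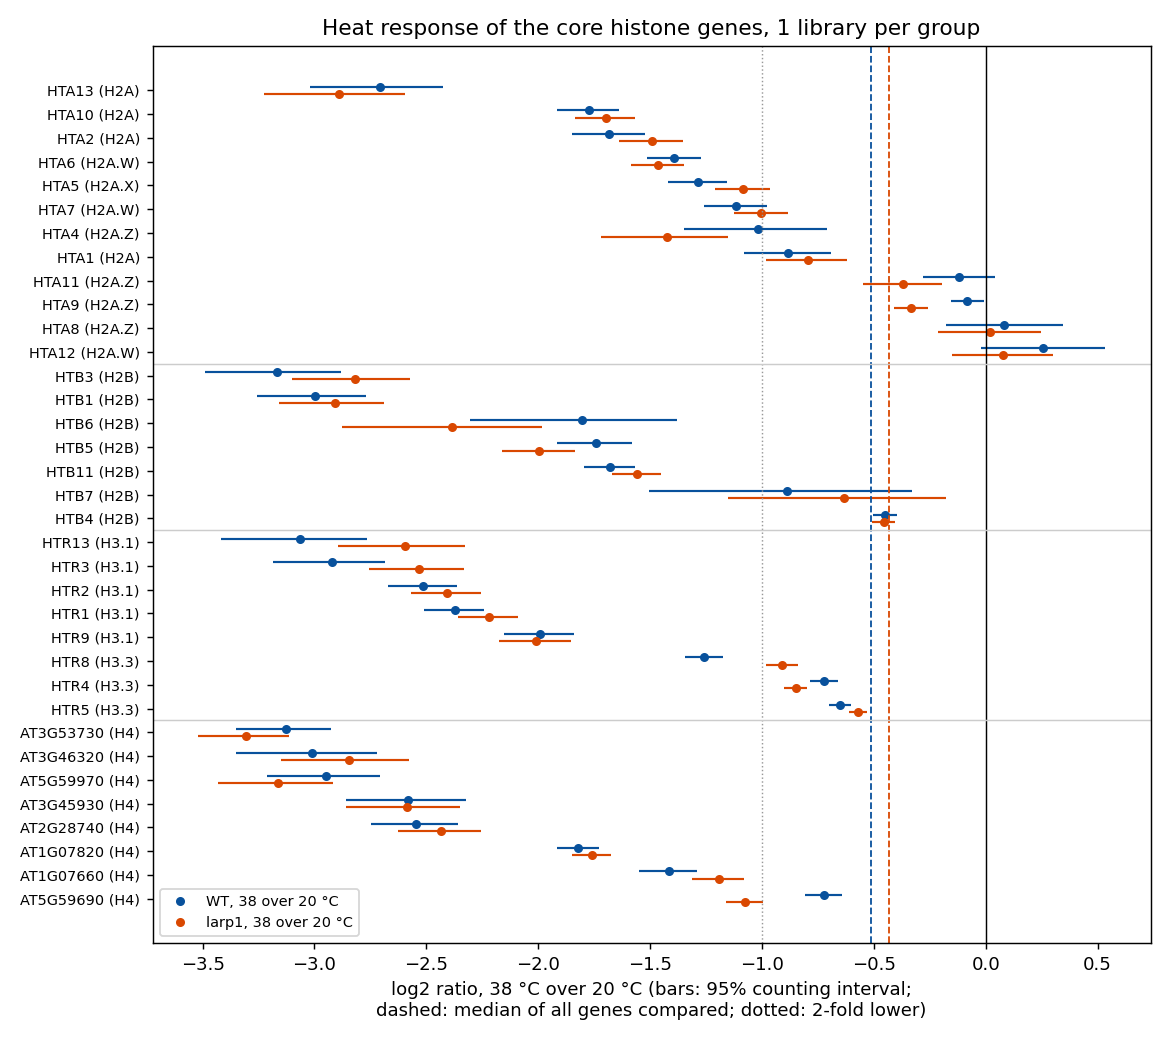
Log2 ratio of 38 over 20 °C for the 35 core histone genes compared in WT, in WT (blue) and larp1 (orange), with 95% counting intervals as bars, ordered by class and by the WT value. The dotted line marks 2-fold lower and the dashed lines mark the medians of all genes, -0.51 and -0.43; members run from -3.17 for HTB3 to 0.26 for HTA12 in WT, and H3.1 genes lie left of all H3.3 genes.

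Among the H4 genes AT3G53730 had the lowest heat ratio. It was at 42.2 RPM in the WT control and 4.81 RPM after heat, and at 46.9 and 4.72 RPM in the larp1 libraries. Both heated libraries were far below both control libraries, by log2 ratios of -3.13 [-3.35, -2.93] and -3.31 [-3.52, -3.11]. AT3G46320 was at 18.2, 2.23, 17.9 and 2.47 RPM in control WT, heated WT, control larp1 and heated larp1. This order holds for all series of 4 values that follow. As summed here the most abundant H4 gene was AT1G07820. It stood at 93.98, 26.6, 97.7 and 28.8 RPM, a log2 ratio of -1.82 in WT and -1.76 in larp1. Its level adds 3 entries, at 47.3, 2.13 and 44.6 RPM in the WT control, although the transcript used for its length has 1 exon. Such entries may overlap and count reads more than once, so its rank above AT5G59690, which has 1 entry, is not certain. AT5G59690 had the highest heat ratio of the class. Its 70.6, 42.7, 69.6 and 32.98 RPM gave -0.72 [-0.81, -0.64] in WT, short of 2-fold, and -1.08 [-1.16, -0.99] in larp1. The remaining 4 H4 genes ranged from -2.95 to -1.42 in WT and from -3.16 to -1.19 in larp1, and all were called lower in both. Under TMM and median-of-ratios scaling AT1G07660 in both genotypes and AT5G59690 in larp1 were no longer 2-fold lower.

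The start region of AT3G53730, the H4 gene with the lowest heat ratio, holds none of the octamers and is shown beside that of HTR2 above.
AT3G53730 promoter, chr3:19913516-19913765, minus strand: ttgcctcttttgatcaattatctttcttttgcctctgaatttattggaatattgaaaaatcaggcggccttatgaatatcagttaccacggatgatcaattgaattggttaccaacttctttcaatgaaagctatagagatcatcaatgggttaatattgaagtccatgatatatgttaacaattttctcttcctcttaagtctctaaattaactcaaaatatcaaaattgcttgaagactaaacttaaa
Members were also split by the octamer, with no test. The median log2 ratio in WT was -1.77 over the 9 genes with it, of which 7 were lower, and -1.68 over the 26 genes without it that were compared, of which 18 were lower. In larp1 the medians were -1.70, with 8 of 9 lower, and -1.49, with 17 of 27 lower. Among members with 1 distinct exon entry the order was the other way: the medians in WT were -2.18 over 4 genes with it and -2.75 over 14 without it, and in larp1 -2.11 and -2.56. Among genes with it, HTR2 was 5.71-fold lower in WT and the H4 gene AT5G59690 1.65-fold lower.

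The 5 H3.1 genes were all called lower after heat in both genotypes, with log2 ratios in WT from -3.07 to -1.99, whereas the 3 H3.3 genes lay between -1.26 and -0.65. The H3.1 genes each have 1 distinct exon entry and the H3.3 genes several, so variant and entry number cannot be told apart here. HTR13 had the lowest heat ratio in WT, with 17.5, 2.07, 15.6 and 2.56 RPM and a log2 ratio of -3.07 [-3.42, -2.76]; in larp1 it was -2.59 [-2.89, -2.33]. HTR3 stood at 26.9, 3.52, 26.3 and 4.52 RPM. The heated libraries were below the control libraries in both, without overlap. HTR1, the most abundant H3.1 gene, stood at 63.4, 12.2, 53.4 and 11.4 RPM, and HTR2 at 53.6, 9.36, 44.0 and 8.28 RPM. HTR9 had the mildest change of the 5, with 39.1, 9.81, 32.9 and 8.15 RPM and log2 ratios of -1.99 and -2.01.

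HTR5, the most abundant of all core histone genes, encodes H3.3 and stood at 207, 132, 235 and 159 RPM, log2 ratios of -0.65 [-0.70, -0.60] in WT and -0.57 [-0.61, -0.53] in larp1. HTR4 stood at 129, 77.9, 152 and 84.1 RPM, with -0.72 and -0.85. Neither reached 2-fold in either genotype, and of all genes compared 41.8% in WT and 40.5% in larp1 had a lower ratio than HTR5, and 37.9% and 25.7% a lower ratio than HTR4. HTR8 stood at 88.9, 37.2, 88.9 and 47.3 RPM; it was called lower in WT, at -1.26 [-1.34, -1.17], and not in larp1, at -0.91 [-0.98, -0.84]. Its 3 exon entries each had a lower ratio in WT, from -1.37 to -1.06, than in larp1, from -0.96 to -0.87, and the difference between the genotypes was 0.35 [0.24, 0.46] on the log2 scale. It did not reach 2-fold, and under TMM and median-of-ratios scaling HTR8 was not called lower in WT either.

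As a sum, H3.1 went from 200.5 to 37.0 RPM in WT and from 172 to 34.95 RPM in larp1, ratios of 0.184 [0.175, 0.195] and 0.203 [0.193, 0.214]. H3.3 went from 424 to 247 RPM and from 476 to 289.9 RPM, ratios of 0.582 [0.568, 0.596] and 0.609 [0.597, 0.622]. H3.1 thus made up 32.1% of the H3.1 and H3.3 reads of WT at 20 °C and 13.0% at 38 °C, and 26.6% and 10.8% in larp1. This share sets genes of the same library against each other and so does not depend on library scaling.

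**Figure D3:**
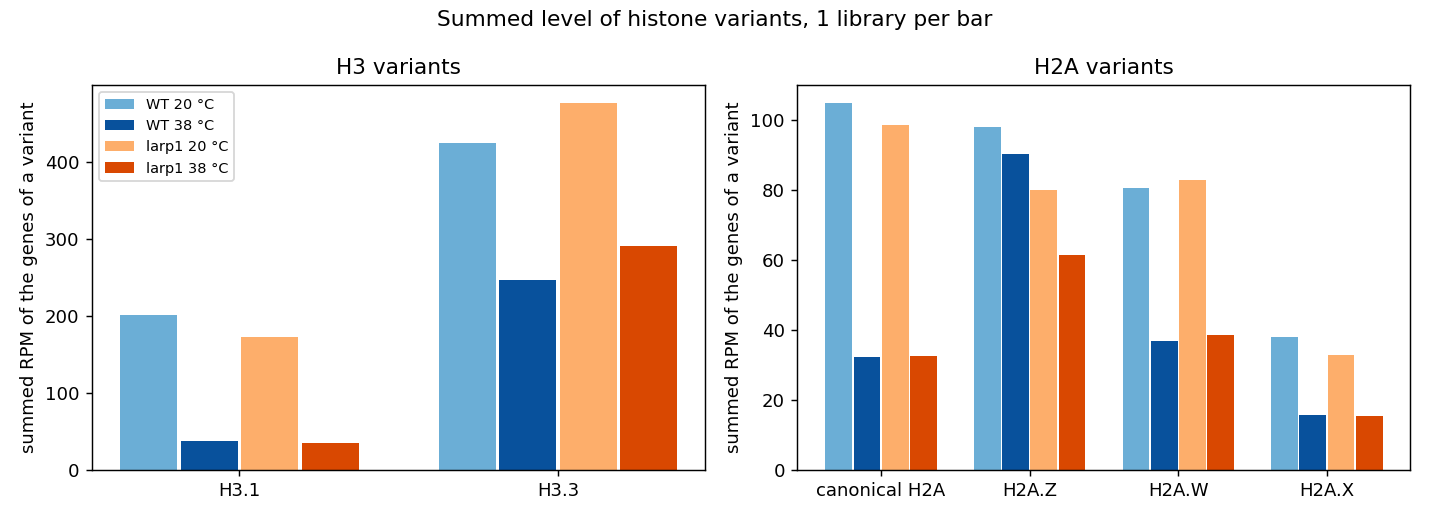
Summed RPM of the genes of each H3 variant (left) and H2A variant (right), 1 bar per library, from 0. H3.1 dropped from 200.5 to 37.0 RPM in WT and from 172 to 34.95 RPM in larp1, whereas the H2A.Z bars stand at 98.0, 90.3, 80.1 and 61.3 RPM from left to right.

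Within H2A, 3 of the 4 canonical genes had the lowest heat ratios in WT, and HTA12 and 3 of the 4 H2A.Z genes the highest. The 4 canonical genes summed to 105, 32.3, 98.6 and 32.7 RPM, a ratio of 0.309 [0.290, 0.328] in WT and 0.331 [0.313, 0.350] in larp1. HTA13 was the lowest, with 16.8, 2.56, 15.5 and 2.07 RPM and log2 ratios of -2.71 and -2.89; it overlaps AT3G20680 on the opposite strand. HTA10 followed in WT, with 43.6, 12.8, 38.6 and 11.9 RPM, -1.77 and -1.70. HTA2 was at -1.68 and -1.49, and HTA1 was not called in either genotype, at -0.88 and -0.80.

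The 4 H2A.Z genes summed to 98.0, 90.3, 80.1 and 61.3 RPM. The heat ratio of the sum was 0.921 [0.882, 0.962] in WT and 0.766 [0.732, 0.801] in larp1, both below 1 as deposited and above 1 under TMM, at 1.301 and 1.02, and under median-of-ratios scaling, at 1.33 and 1.03. HTA9, the most abundant H2A gene, stood at 71.9, 67.9, 55.5 and 44.0 RPM, HTA11 at 15.1, 13.9, 11.4 and 8.79 RPM and HTA8 at 5.35, 5.66, 5.58 and 5.65 RPM. None of these 3 was called; in WT their log2 ratios were -0.08, -0.12 and 0.08, higher than those of 78.1%, 76.1% and 85.4% of all genes compared. HTA4, by contrast, was at 5.74, 2.82, 7.62 and 2.82 RPM, -1.02 [-1.35, -0.71] in WT and -1.43 [-1.72, -1.15] in larp1; its call in WT is lost under TMM, median-of-ratios, a pseudocount of 0.5 RPM or all exon entries, and that in larp1 under median of ratios. H2A.Z made up 30.5% of H2A reads at 20 °C and 51.6% at 38 °C in WT, and 27.2% and 41.5% in larp1.

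The H2A.W genes differed among themselves. HTA6, with 45.5, 17.3, 44.0 and 15.9 RPM, and HTA7, with 30.5, 14.04, 33.3 and 16.6 RPM, were called lower in both genotypes, at -1.39 and -1.12 in WT. Under TMM and median of ratios HTA6 in WT and HTA7 in both genotypes were no longer 2-fold lower. HTA12, which overlaps HTB10 on the opposite strand over 522 bases, had the highest heat ratio of all members compared in WT. It stood at 4.53, 5.42, 5.64 and 5.94 RPM, with log2 ratios of 0.26 [-0.02, 0.53] and 0.08 [-0.15, 0.30], so that no change lay within the counting intervals as deposited, and at 0.76 and 0.49 under TMM. HTA5, of H2A.X, stood at 38.0, 15.6, 32.9 and 15.5 RPM and was called lower in both, at -1.29 and -1.09, and in neither under TMM or median of ratios.

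The H2B genes included the member with the lowest heat ratio in WT. HTB3 was at 21.5, 2.37, 20.8 and 2.92 RPM, log2 ratios of -3.17 [-3.49, -2.88] and -2.82 [-3.10, -2.57], and HTB1 at 29.8, 3.71, 27.3 and 3.61 RPM, -3.00 and -2.91. Only 0.769% and 1.00% of all genes compared in WT had a lower ratio than HTB3 and HTB1. HTB4, the most abundant H2B gene, stood at 150.0, 109.95, 145 and 106 RPM, and its ratios of -0.45 [-0.50, -0.39] and -0.46 [-0.51, -0.41] were the highest of the class and close to the median of all genes. HTB5, HTB6 and HTB11 were called lower in both genotypes, and HTB7, at 1.67 RPM or less in WT, was not called in either.

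Core histone genes are short and mostly of 1 or a few exons, so the members were also set beside genes with as many exon entries. Of members with 1 distinct entry 15 of 18 compared were lower in WT and 0 higher, with a median log2 ratio of -2.53, where 49.2% of all genes with 1 entry were lower, 8.81% higher and their median was -0.98. In larp1 16 of 18 were lower and 0 higher, against 42.1% and 8.38% of such genes. Of members with several entries 10 of 17 were lower in WT and 0 higher, against 20.2% and 3.37% of genes with several entries. In larp1 9 of 18 were lower and 0 higher, against 15.2% and 3.31%. All H3.1 and H2B genes have 1 distinct entry, and all H3.3 and H2A genes have several. The contrasts of H3.1 with H3.3 and of H2B with H2A thus cannot be told apart from entry number.

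The comparison of larp1 with WT asks whether the mutation changed histone transcripts at either temperature. At 20 °C 0 of 36 core histones compared were called lower and 0 higher, where 0.493% of all 20300 genes compared were lower and 3.49% higher. The median log2 ratio was -0.03, against 0.04 over all genes. At 38 °C 0 of 35 were lower and 0 higher, where 0.2% of 18532 genes were lower and 3.92% higher. The median was -0.00, against 0.14 over all genes. The summed level in larp1 over that in WT was 0.993 [0.984, 1.002] at 20 °C and 1.005 [0.989, 1.021] at 38 °C; under TMM it was 0.9498 and 0.906. The heat log2 ratio in larp1 less that in WT passed 2-fold in 0 of 35 members in either direction, where 0.661% of 19350 genes were called negative and 2.07% positive, and its median was 0.07 against 0.10 over all genes.

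**Figure D4:**
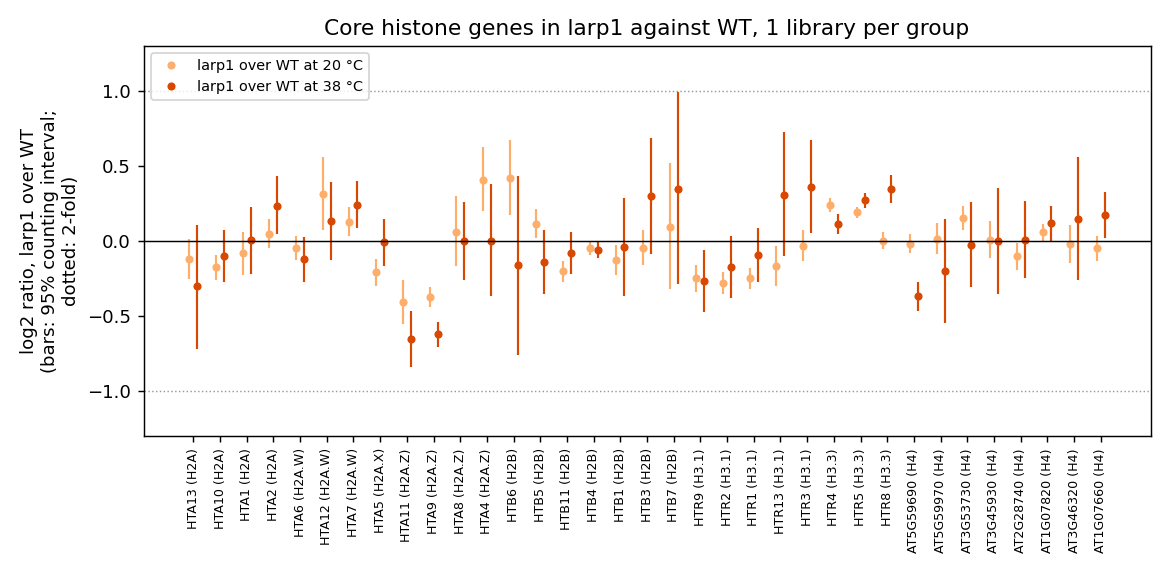
Log2 ratio of larp1 over WT for the core histone genes compared at both temperatures, at 20 °C (light) and 38 °C (dark), with 95% counting intervals as bars, grouped by class and variant. No member lies beyond the dotted 2-fold lines; HTA9 and HTA11 of H2A.Z lie lowest.

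Below that threshold, the sums of H2A.Z, H3.3 and, at 20 °C, H3.1 differed between the genotypes beyond counting error. They were not alone in this. The H2B sum in larp1 was 0.958 [0.937, 0.9785] of that in WT at 20 °C and 0.962 [0.928, 0.996] at 38 °C. H2A.X, here HTA5 alone, was at 0.864 [0.812, 0.919] and canonical H2A at 0.941 [0.907, 0.976] at 20 °C, and H4 at 0.944 [0.905, 0.984] at 38 °C. HTA3, the H2A.X gene outside the selection, went the other way. Its log2 ratios were 0.14 [0.02, 0.26] at 20 °C and 0.43 [0.24, 0.62] at 38 °C. HTA9 was lower in larp1 by log2 ratios of -0.37 [-0.44, -0.31] at 20 °C and -0.63 [-0.71, -0.54] at 38 °C, and HTA11 by -0.41 and -0.66, whereas HTA8 was at 0.06 and -0.00. HTA4 went the other way at 20 °C, at 0.41 [0.20, 0.63], and was at -0.00 [-0.37, 0.38] at 38 °C. The H2A.Z sum in larp1 was 0.817 [0.786, 0.849] of that in WT at 20 °C and 0.679 [0.646, 0.713] at 38 °C, and 0.781 and 0.612 under TMM. Organ markers differed between the genotypes too: the leaf marker sum in larp1 was 0.891 of that in WT at 20 °C and 0.687 at 38 °C, with 4 of 4 genes below 1 at both. The root marker sum was at 0.937 and 1.306, with 4 of 4 genes compared above 1 at 38 °C, and the sum of the shoot meristem markers STM and KNAT1 at 1.299 and 1.452. Their part in the genotype differences of the histones was not tested. H3.3 was higher in larp1 as a sum, by ratios of 1.122 [1.103, 1.142] and 1.175 [1.145, 1.206], and by 1.074 and 1.060 under TMM. H3.1 was at 0.858 [0.836, 0.882] at 20 °C, below 1 in all 5 genes, and at 0.945 [0.880, 1.014] at 38 °C. With a single pool of plantlets per group, whether such offsets exceed the spread between pools could not be measured. Among H4 genes, AT5G59690 was the lowest in larp1 at 38 °C, at -0.37 [-0.47, -0.27].

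Linker histones, which bind the DNA between nucleosomes, and genes that act with core histones were followed for comparison. H1.1 stood at 93.6, 21.2, 99.9 and 23.4 RPM and H1.2 at 159, 32.1, 158 and 29.5 RPM, log2 heat ratios of -2.14 and -2.30 in WT, in the range of H3.1 genes. H1.3, the linker histone known to be induced by drought and low light, stood at 15.8, 18.5, 42.0 and 38.9 RPM. It was not called after heat but was called higher in larp1 at both temperatures, by log2 ratios of 1.41 and 1.07. Of all genes compared, 3.49% were higher in larp1 at 20 °C and 3.92% at 38 °C. TMM and median-of-ratios scaling shift the ratios at 38 °C by -0.149 and -0.163, which takes H1.3 below 2-fold there. Over all genes compared for heat, 25% were lower in WT and 19.8% in larp1, and 4.26% and 4.19% higher. Of 14 histone chaperones, which carry histones to and from DNA, 3 were lower in each genotype and 0 higher, with medians of -0.61 and -0.52 near those of all genes. ASF1A, an H3 and H4 chaperone, had the lowest ratio, at 11.1, 3.56, 9.34 and 3.93 RPM; FAS1, a subunit of the chromatin assembly factor CAF-1, was at 5.87, 2.5, 5.27 and 2.5 RPM. SPT6L, a transcription elongation factor and the most abundant of the list, was at 106, 102, 118 and 116 RPM. In the complex that exchanges H2A for H2A.Z, 1 of 4 genes, PIE1, was lower in WT, at 23.4 and 11.6 RPM, and 0 in larp1, at 23.1 and 14.8 RPM. The WT log2 ratio of PIE1, -1.01, lay close to the threshold, and its difference between the genotypes, 0.37, was not called. TMM and median-of-ratios scaling shift WT heat ratios up by 0.499 and 0.529, which takes PIE1 and FAS1 short of 2-fold. ARP6, another subunit, was at log2 ratios of -0.49 and -0.20.

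Genes of DNA replication, with which canonical histone genes are transcribed in cycling cells, and genes of mitosis had medians closer to those of all genes than the core histones had. The counts of these and the following lists stand against 25% of all genes compared lower after heat in WT and 19.8% in larp1. The shares higher were 4.26% and 4.19%. These calls rest on the deposited scaling. TMM and median-of-ratios scaling shift WT heat ratios up by 0.499 and 0.529, which takes genes such as TSO2 and KNAT1 short of 2-fold in WT. Of 19 replication genes compared, 5 were lower in WT and 2 in larp1 and 0 higher, with medians of -0.73 and -0.52. CDT1A, a replication licensing factor, was at 7.20, 1.14, 4.82 and 1.72 RPM; ORC1B, of the origin recognition complex, at 4.58, 1.41, 4.38 and 2.27 RPM; and TSO2, of ribonucleotide reductase, at 49.7, 23.3, 37.2 and 23.2 RPM. CDT1A was the only gene of the list past 2-fold in the difference of the heat responses, at 1.16 [0.61, 1.72]. Of 12 mitotic genes, 2 were lower in WT and 1 in larp1. CYCA1;1 was at 3.38, 0.44, 2.87 and 0.91 RPM and CYCB1;1, both cyclins, at 3.46, 1.34, 2.7 and 1.61 RPM, and CYCA1;1 passed 2-fold in the difference of the heat responses, at 1.25 [0.42, 2.07]. The most abundant, KNOLLE, a syntaxin of the cell plate, was at 17.7, 15.6, 16.8 and 14.1 RPM. Root markers did not all move the same way. SCR, SHR and COBL9 were lower in both genotypes, SCR at 29.3, 6.58, 27.2 and 9.51 RPM. WOX5 was higher in both, at 0.6, 2.48, 0.62 and 3.05 RPM. PLT2 was lower in larp1, and PLT1 was at 0.59 RPM or less. The sum over the list, most of it SCR in both control libraries, went from 46.0 to 14.1 RPM in WT and from 43.1 to 18.4 RPM in larp1. Leaf markers had 0 of 4 called, with medians of -0.36 and -0.83; LHCB1.3, a light-harvesting protein and the most abundant, was at 22288, 16035, 21123 and 11219.7 RPM, and RBCS1A, of the small Rubisco subunit, had log2 ratios of -0.74 and -0.98. Of the shoot meristem markers 1 of 2 compared, KNAT1, was lower in both, at 5.07, 2.08, 7.69 and 3.58 RPM, and STM was at 2.45, 2.12, 2.08 and 2.52 RPM. The part of such organ markers in the histone result was not tested.

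**Figure D5:**
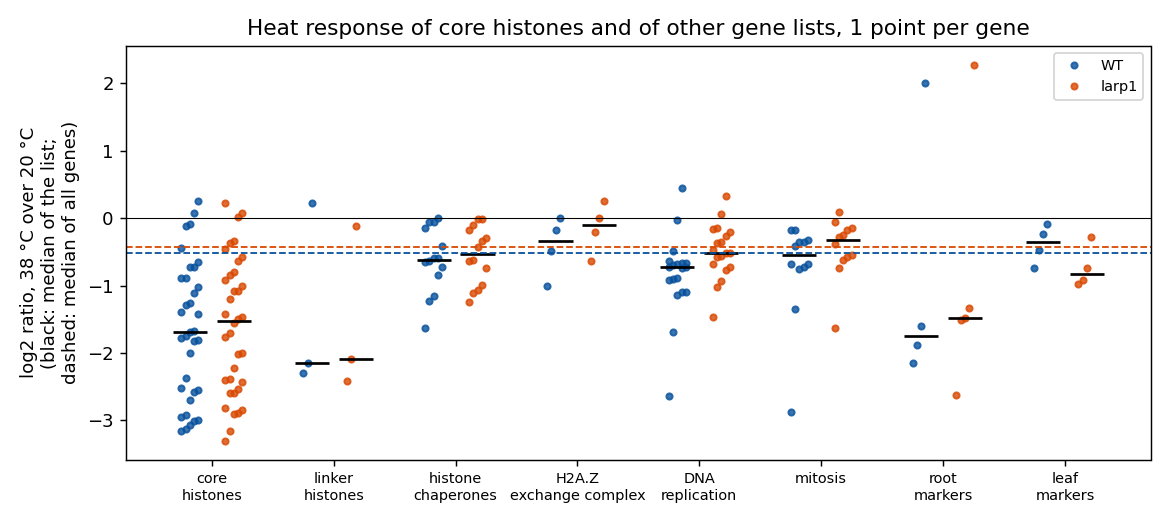
Log2 ratio of 38 over 20 °C in WT (blue) and larp1 (orange), 1 point per gene compared, for the core histones and for 7 other lists; black bars are list medians and dashed lines the medians of all genes, -0.51 and -0.43. The medians of core histones (-1.68 and -1.53), linker histones (-2.14 and -2.09) and root markers (-1.75 and -1.48) lie below those of the chaperone, replication and mitosis lists, between -0.73 and -0.33, while single genes such as HTA12 and H1.3 lie above them.

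The genes selected by description that are no core histones show how overlapping loci enter the table. SDH2-1 (AT3G27380), a subunit of mitochondrial succinate dehydrogenase, overlaps HTR3 on the same strand. Its entry that carries the locus name of HTR3 went from 18.2 to 2.23 RPM in WT, a log2 ratio of -3.02, and a further entry under that name from 42.4 to 17.5 RPM. Its entries under its own name went from 24.2 to 15.3 and from 39.2 to 25.98 RPM. The gene as a whole was called lower in WT, at 124 and 61.0 RPM, although its own entries had ratios of -0.66 and -0.59. AT3G20680, whose single entry carries the name of HTA13, was at 10.4, 6.78, 10.4 and 4.25 RPM and was called lower in larp1 alone, a difference that was not called. AT1G52750, which overlaps HTA9 by 21 bases on the opposite strand, was at 4.76, 2.60, 6.44 and 3.67 RPM. The histone-fold gene AT5G50930 did not reach 50 reads. The 4 core histones outside the selection had log2 heat ratios in WT of -2.45 for HTB2, -1.33 for HTB9, -1.17 for HTA3 of H2A.X and -0.55 for HTR11.

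In the authors' deposited table of genes down after heat, 23 of the 41 core histones are listed for both genotypes, HTR8 for WT alone, and HTA4 and AT5G59690 for larp1 alone; none is in the lists of genes up after heat and 15 are in no list. The authors' deposited table gives HTR8 a ratio of 0.418 in WT and 0.532 in larp1, HTA4 0.502 and 0.367, and AT5G59690 0.605 and 0.474.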

How the data were processed

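The authors deposited a signal in RPM per exon entry, rounded to 2 decimals, per the file headers; the submitters' processing notes name BWA 0.5.9 and the TAIR10 build. Libraries were depleted of ribosomal cDNA by duplex-specific nuclease, which can also lower other abundant transcripts, and sequenced as single reads of 100 bp, per the labels' protocols. How reads were counted, and whether by strand, is not given in the sources used here, so overlapping genes are uncertain. The deposited gene lists hold the authors' ratio (fold) of 38 over 20 °C.

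Members, lists and rules were chosen with earlier results of these data known. A gene value is the sum of its distinct entries (132172 of 181379). Where alternative exons overlap, a read may enter 2 entries. Levels, ranks and sums of such genes can then be too high, and counting intervals are too narrow. The worth of 1 read, 0.0217, 0.0235, 0.0134 and 0.0223 RPM in WT at 20 and 38 °C and larp1 at 20 and 38 °C, was taken from the steps of low values (99.892% of values in the first library and 100% in the others were whole multiples within rounding) and gave reads for the minimum of 50 and for conditional binomial 95% intervals. Each group holds 1 library, so no count model was fitted. For log2 ratios the worth of 1 read was added to each RPM value, which understates the change of low genes; a normal interval was put on the difference between genotypes in heat response. The column of larp1 at 20 °C carries an unexplained suffix. Calls and scalings were tested on simulated reads that held counting error only. The simulation had no spread between pools and no overlapping entries, so it checks the calculation and not the calls made from single pools. Genes named with values were, per class, the most abundant, the 2 with the lowest and the 1 with the highest WT heat ratio, and the replacement variants; per list, the most abundant and the 2 with the widest WT heat ratio. Other H3.1 and H2A genes, HTB5, HTB6, HTB7 and HTB11, further genes of the lists and the HTR2 promoter were named after their values were seen. HTR10, WUS and CLV3 were not analysed here. Scripts ran in Python 3.11.15 with scipy 1.17.1, pandas 2.3.3 and numpy 2.4.6; matplotlib 3.10.9 drew the plots. Exons, promoters (250 bases before the annotated start) and overlaps came from RefSeq TAIR10.1.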

Additional observations from a re-analysis of the deposited data

How the results depend on the processing

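Of 210 alternative values of the main counts, medians and sums, 187 stayed within the limits set (1.5 times for a count, the 95% counting interval for a sum, for a median the typical distance from a member to the end of its counting interval). The count of core histones lower after heat was 25 in WT and 25 in larp1 and ranged from 19 to 28 and from 17 to 27. The median heat ratio was -1.18 (TMM), -1.15 (median of ratios) and -1.42 (minimum of 1 read) in WT, and -1.11 and -1.09 under these scalings in larp1. The summed heat ratio was 0.630 (TMM), 0.644 (median of ratios), 0.490 (all entries) and 0.426 (totals without organelle genes) in WT, and 0.601, 0.610, 0.495 and 0.435 in larp1. The summed ratio of larp1 over WT was 0.9498, 0.947 and 1.031 (TMM, median of ratios, all entries) at 20 °C, and 0.906, 0.897 and 1.043 at 38 °C. With a minimum of 10 reads or of 1 read, 1 and 2 core histones were higher in larp1 at 20 °C and 1 and 1 at 38 °C. The H3 sum of larp1 over WT at 20 °C, 1.039, turned to 0.994 (TMM) and 0.991 (median of ratios). The H2A.Z heat ratio turned to 1.301 and 1.33 in WT and 1.02 and 1.03 in larp1 under these scalings. Chosen after seeing the data were other member sets (all 45 genes, the 4 histones outside the selection added, overlapping genes or genes sharing 100-base words left out), which gave 21 to 28 lower genes in WT and 21 to 27 in larp1, and the values of variants and single genes. The cause of these shifts was not tested. No paired analysis was possible because the groups share fewer than 2 replicate numbers; with 1 library per group none could be left out, and an additive fit of genotype and temperature, which takes their interaction as error, was not run. At these depths 3 reads are 0.0403 to 0.0704 RPM, the least that could be told from 0.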
